A study of Mus musculus with 52 samples.

Results

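Serpina3g, Serpina3f, Ctla2a, Ctla2b, Tmem176b and Tmem176a are 6 mouse genes that lie as 3 pairs of neighbouring relatives, and their transcript levels were described in single bone marrow cells. They were chosen from values measured in these same cells, in which Serpina3g, Ctla2a and Tmem176b stood out between cells. Every level by cell class and every correlation below is thus a description without a test. All 6 have a row among the 28786 gene entries, and 5 of them were among the 9087 genes with a read in at least 10 kept cells and a mean of at least 5 counts per 1000000 (CPM), while Serpina3f was not. The study holds 52 libraries, each from 1 cell and made by Smart-seq2, a plate method that copies whole transcripts and carries no molecular identifiers. All carry the label primed HSCs (haematopoietic stem cells) and came from bone marrow of C57BL/6 mice with the genotype Cd4-cre;R26Tdtomato, 6 to 8 weeks old. In this genotype Cre recombinase under control of Cd4, a T cell gene, can switch on a red fluorescent reporter, and transcripts of neither transgene were analysed here. No source used here gives the number of mice, the sort gate or what "primed" stands for, so the cells form 1 sample without a replicate.

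The Serpina3 genes encode serpins, which trap a protease by offering it a bait loop and then changing shape around it. Mice have a cluster of them where humans have the single gene SERPINA3, and mouse Serpina3g, also known as Spi2A, acts inside the cell on cysteine cathepsins that leak from lysosomes as well as on serine proteases. Ctla2a and Ctla2b were first found in activated mouse T cells and mast cells and encode small proteins that resemble the inhibitory propeptide of cathepsin L, which Ctla2a inhibits. Tmem176a and Tmem176b encode membrane proteins related to the MS4A family that sit in endosomal and Golgi membranes, and Tmem176b is best known as a cation channel of dendritic cells. Cd34 encodes a surface sialomucin of progenitors, Meis1 a homeobox factor of stem cells, and Klf1 the master transcription factor of red cell precursors.

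The 2 genes of each pair begin with related or shared sequence, which is shown here because the pairs are set against each other below. Each window runs from 250 bases before to 50 bases after a RefSeq transcript start (build GRCm38.p6), is written 5′ to 3′ on the strand of its gene, and lies at chr12:104235897-104236196 (plus strand) for Serpina3g, chr12:104214294-104214593 (plus) for Serpina3f, chr13:60936576-60936875 (minus) for Ctla2a, chr13:60897398-60897697 (minus) for Ctla2b and chr6:48841233-48841532 (plus) for Tmem176a. Capitals mark matches, on either strand, to letters of 6 motifs, which are TGACTCA for AP-1, TGACAG for MEIS factors, AGATAA for GATA factors, CCNCACCC for KLF factors, AGGAAG for ETS factors and TTCNNNGAA for STAT factors.
Serpina3g: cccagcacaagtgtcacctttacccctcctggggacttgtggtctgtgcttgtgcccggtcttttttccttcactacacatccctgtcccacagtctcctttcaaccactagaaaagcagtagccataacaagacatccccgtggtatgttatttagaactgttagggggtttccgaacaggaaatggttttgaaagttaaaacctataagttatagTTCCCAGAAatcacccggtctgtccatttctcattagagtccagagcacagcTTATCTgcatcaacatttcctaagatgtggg
Serpina3f: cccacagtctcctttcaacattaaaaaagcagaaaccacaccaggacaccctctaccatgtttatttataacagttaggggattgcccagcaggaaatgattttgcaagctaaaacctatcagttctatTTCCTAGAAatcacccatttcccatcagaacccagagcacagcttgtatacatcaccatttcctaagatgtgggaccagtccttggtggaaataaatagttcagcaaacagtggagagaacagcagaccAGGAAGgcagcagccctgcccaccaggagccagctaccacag
Ctla2a: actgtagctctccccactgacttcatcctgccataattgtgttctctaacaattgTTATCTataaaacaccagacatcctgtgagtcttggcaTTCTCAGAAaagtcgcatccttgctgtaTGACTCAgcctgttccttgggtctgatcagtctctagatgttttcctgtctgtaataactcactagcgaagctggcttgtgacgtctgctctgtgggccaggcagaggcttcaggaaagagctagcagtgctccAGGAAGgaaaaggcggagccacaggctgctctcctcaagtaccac
Ctla2b: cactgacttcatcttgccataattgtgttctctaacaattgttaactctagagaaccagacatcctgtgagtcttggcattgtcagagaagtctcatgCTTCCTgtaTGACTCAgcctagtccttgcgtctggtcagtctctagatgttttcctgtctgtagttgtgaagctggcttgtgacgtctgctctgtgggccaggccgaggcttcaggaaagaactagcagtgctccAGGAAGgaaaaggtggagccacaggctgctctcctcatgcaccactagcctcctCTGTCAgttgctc
Tmem176a: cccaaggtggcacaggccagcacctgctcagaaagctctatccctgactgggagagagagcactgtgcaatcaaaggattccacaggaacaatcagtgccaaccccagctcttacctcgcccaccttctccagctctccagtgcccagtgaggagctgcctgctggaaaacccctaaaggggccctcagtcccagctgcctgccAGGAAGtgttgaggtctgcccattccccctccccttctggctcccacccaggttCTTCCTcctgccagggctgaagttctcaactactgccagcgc

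In an alignment of the windows, Ctla2a and Ctla2b had the same base at 255 of their aligned positions and another base at 23 (91.7% identity), with 44 bases in gaps. Serpina3g and Serpina3f had the same base at 169 and another base at 33 (83.7%), with 196 bases in gaps. The percentages leave gaps out. Both Ctla2 windows held the AP-1 letters, 129 bases before the start in Ctla2a and 143 bases before it in Ctla2b, and 5.2% of all 32851 mouse promoter windows of this length held them. Both Serpina3 windows and that of Ctla2a held the STAT letters (8.3% of all windows). The MEIS letters were found in Ctla2b (19.2% of all windows), the GATA letters in Serpina3g and Ctla2a (11.2%), and the KLF letters in none of the windows (16.6%). The ETS letters stood in 35.4% of all windows and in Serpina3f, Ctla2a, Ctla2b and both Tmem176 windows. No matches overlapped one another in these windows. Tmem176b starts on the opposite strand within the Tmem176a window, and its own window, chr6:48841325-48841624 (minus strand), shares 208 bases with it, so both hold the same ETS letters. The RefSeq starts of Tmem176a and Tmem176b used here lie 109 bases apart and point away from each other. A match of letters is a description of the sequence and no evidence that a factor binds there. These windows follow RefSeq starts, which differ from the outermost starts in GENCODE M21 by 98 bases for Serpina3g, 122 for Tmem176b and 564 for Tmem176a.

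Of the 52 cells, 49 passed filters on depth, gene number and mitochondrial share, and they held 85519 to 12446477 reads (rounded estimated counts) with a median of 2187579. Cells 5, 10 and 12, numbered as in their titles, were left out. Cell 34 had the highest Lyz2, at 39230 CPM, and cell 9 was the shallowest and had the highest Igkc, at 3531 CPM, a myeloid and a B lineage gene. These, cell 13 and cell 23 were doubted in an earlier analysis of the same data. The differences by Cd34 and the changes in the most correlated genes are also given below without these 4 cells. Erythroid markers were widespread, with Klf1 at 10 CPM or more in 41 cells, while Meis1 reached that level in 22 cells and Cd34 in 14. Of the 15 HSC markers 3 reached 10 CPM in at least 50% of the cells, Kit in 48 cells, Txnip in 44 and Angpt1 in 28. Procr and Ly6a reached that level in 4 cells each. Of the 10 T cell genes, Cd3e, Cd4, Bcl11b, Trbc2 and Il7r had 0 reads in the kept cells, Lat reached 10 CPM in 13 cells, and each of the others did so in at most 1 cell. Title codes began with Y for 44 kept cells, with F for 4 and with R for 1, and no source used here says what they mean.

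Serpina3g, Ctla2a, Ctla2b, Tmem176b and Tmem176a were each high in a minority of cells and near 0 in the rest, while Serpina3f was silent at this depth. Serpina3g, on chromosome 12 (104236245 to 104241939, plus strand, GRCm38), reached 10 CPM in 18 of 49 cells (36.7%, exact Clopper-Pearson 95% interval 23.4 to 51.7). Serpina3f, 15115 bases before it (104214544 to 104221129, plus strand), had 0 reads in all 52 cells. With 0 of 49 kept cells, a limit of 3 cells leaves a share of up to 6.12% that could hold a read. The intervals and this limit cover counting error only, and reads copied by PCR without molecular identifiers are not independent molecules. On chromosome 13, Ctla2a (60934155 to 60936625, minus strand) reached 10 CPM in 20 cells (40.8%, 27 to 55.8) and Ctla2b (60895350 to 60897447, minus strand) in 17 cells (34.7%, 21.7 to 49.6). On chromosome 6, Tmem176b (48833818 to 48841496, minus strand) did so in 20 cells (40.8%) and Tmem176a (48840919 to 48847071, plus strand) in 14 cells (28.6%, 16.6 to 43.3). All 6 are annotated as protein-coding, and values come from the deposited estimated counts per gene.

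Serpina3g parted the cells with the widest gap. In 14 cells it had 0 reads and in 13 a single read, the highest value under 10 CPM was 6.63 CPM in cell 34, and the lowest value above was 111 CPM in cell 13. No cell lay between those values, and cells 34 and 13 are both among the doubted cells. Its highest level was 6155 CPM in cell 41, against 1289 CPM in the next cell, cell 20, so that cell 41 held 38.4% of the CPM summed over cells. In cell 41 its CPM, not corrected for length, was the 6th highest of all genes. The other members had no such outstanding cell: the highest Ctla2a (1782 CPM) and Ctla2b (1643 CPM) were in cell 33, the highest Tmem176b in cell 26 (1333 CPM, next 1324 CPM) and the highest Tmem176a in cell 41 (481 CPM, next 448 CPM). Levels were also counted per kilobase of exon, to set different genes side by side. The length joins all annotated exons of a gene, whichever transcripts were in use, so the comparison is rough. On this scale Serpina3g averaged 155 ± 438 CPM per kilobase (SD over 49 cells), Ctla2a 121.5 ± 210, Tmem176b 95.1 ± 169, Ctla2b 75.6 ± 176 and Tmem176a 15.4 ± 32.2. The SD exceeded the mean for each gene, and neighbours in this order did not differ beyond the spread over cells. In the cells left out, Ctla2a had 3 reads in cell 5 and Tmem176a had 2 in cell 10, and the other members had none.

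**Figure D1:**
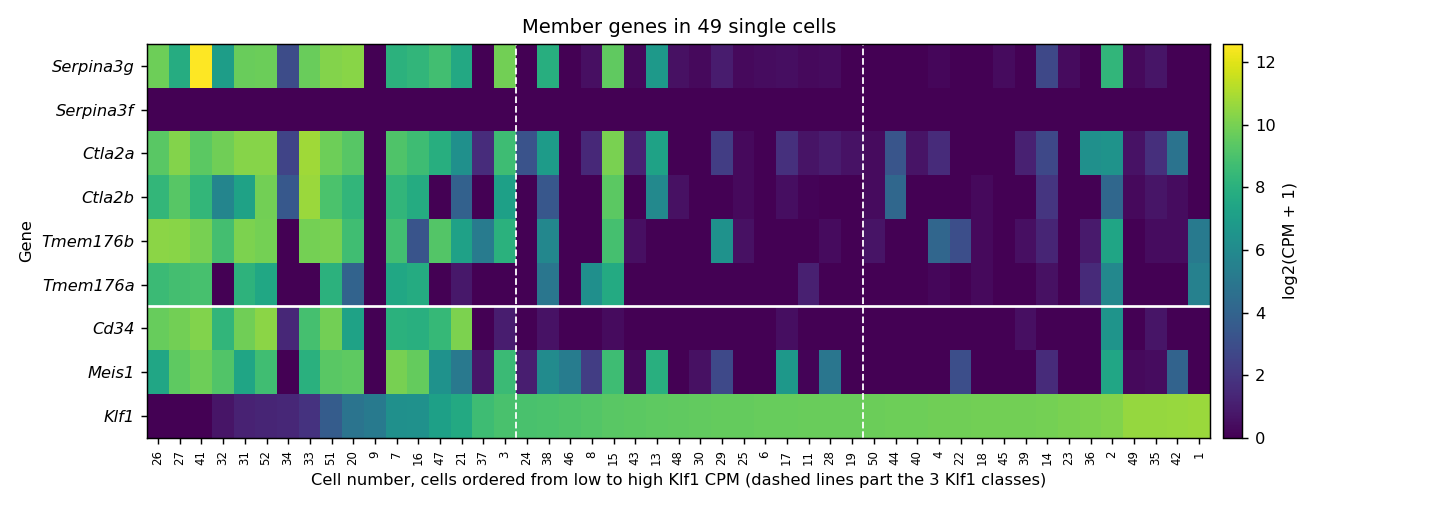
Levels of the 6 genes and of Cd34, Meis1 and Klf1 as log2(CPM + 1) (colour) in 49 single cells (columns), ordered from low to high Klf1, with dashed lines between the 3 Klf1 classes. The 5 expressed genes are bright mainly at the low Klf1 end, Serpina3f is at 0 in every column, and cell 2, at the high Klf1 end, has all 5 at 10 CPM or more.

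Cells were set apart by Cd34 (14 cells at 10 CPM or more, 35 below), by Meis1 (22 and 27 cells) and by Klf1, in classes of low (17 cells, 0 to 505 CPM), middle (16 cells, 507 to 851 CPM) and high level (16 cells, 852 to 1648 CPM). These classes overlap: every Cd34 cell was also a Meis1 cell, and 13 of the 14 were in the low Klf1 class. The classes are ranges of a measured level within 1 sample and not separate groups. Differences are between means of log2(CPM + 1), which understates the change of genes near 0.

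Serpina3g was found in all Cd34 cells. Its lowest, median and highest levels were 129, 633 and 6155 CPM in the 14 Cd34 cells and 0, 0.241 and 964 CPM in the 35 other cells. Of the cells without Cd34, 4 had it at 10 CPM or more, all with Meis1. The ranges overlapped through cell 3 (964 CPM), cell 15 (731 CPM) and cell 38 (240 CPM), while cell 13 (111 CPM) lay just below the Cd34 cells. By Meis1, 18 of the 22 Meis1 cells had Serpina3g at 10 CPM or more (0, 314 and 6155 CPM), against 0 of the 27 other cells (0, 0.222 and 6.63 CPM). The 4 Meis1 cells that lacked it were cells 17, 28, 42 and 46, with Meis1 between 14.9 and 102 CPM. Serpina3g thus reached 10 CPM only in cells where Meis1 did too, among the 49 kept cells. By Klf1 class, 14 of 17 low, 3 of 16 middle and 1 of 16 high cells had Serpina3g at 10 CPM or more, with medians of 437 CPM in the low, 0.325 CPM in the middle and 0 CPM in the high class. The high Klf1 cell was cell 2, which had 315 CPM of Serpina3g beside 1160 CPM of Klf1 and 91.0 CPM of Cd34.

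Ctla2a followed nearly the same cells, and Ctla2b fewer of them. Ctla2a had 77.7, 675 and 1782 CPM (lowest, median, highest) in Cd34 cells and 0, 1.24 and 1074 CPM in the other cells, with 14 of 14 and 6 of 35 cells at 10 CPM or more. Ctla2b had 0, 309 and 1643 CPM in Cd34 cells and 0, 0 and 690 CPM in the others, with 13 of 14 and 4 of 35 cells. The Cd34 cell without Ctla2b was cell 47, which had 233 CPM of Ctla2a. In Meis1 cells the median was 479 CPM for Ctla2a (19 of 22 cells) and 147.5 CPM for Ctla2b (16 of 22). In cells without Meis1 it was 0.562 CPM for Ctla2a, with only cell 36 past 10 CPM at 79.6 CPM, and 0 CPM for Ctla2b, with only cell 44 past it at 17.7 CPM. In cell 44, with a depth of 113234 reads, that level was 2 reads. By Klf1 class the medians of Ctla2a were 628, 1.12 and 0.916 CPM from low to high, and those of Ctla2b were 210.5, 0 and 0.125 CPM. In the middle and high classes 3 cells each had Ctla2a at 10 CPM or more, against 14 in the low class.

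Tmem176b and Tmem176a had the largest share of their cells outside the Meis1 class. Tmem176b had 8.56, 794 and 1333 CPM in Cd34 cells and 0, 0.250 and 466 CPM in the other cells, with 13 of 14 and 7 of 35 cells at 10 CPM or more. Tmem176a had 0, 180 and 481 CPM in Cd34 cells and 0, 0 and 204 CPM in the others, with 10 of 14 and 4 of 35 cells. The 4 Cd34 cells without Tmem176a at that level were cells 21, 32, 33 and 47. In Meis1 cells the medians were 426.5 CPM for Tmem176b (16 of 22 cells) and 22.4 CPM for Tmem176a (12 of 22). In cells without Meis1 both medians were 0 CPM, and Tmem176b reached 10 CPM in cells 1, 4, 29 and 37, at 16.8 to 83.01 CPM, and Tmem176a in cell 1 at 45.5 CPM and in cell 8 at 77.3 CPM. In those 5 cells Serpina3g was at most 0.965 CPM and Ctla2a at most 3.86 CPM, so Tmem176 reads appeared there without the other families. By Klf1 class the medians were 461, 0 and 0.369 CPM for Tmem176b and 14.9, 0 and 0 CPM for Tmem176a from low to high.

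All 5 expressed genes were higher by at least 1 on the log2 scale in Cd34 cells, where 10.5% of the 9087 genes tested were higher and 40.9% lower by that much, and the difference of the median gene was -0.715. These calls rest on the cells that chose the genes, so nothing is read from them. The difference of means was 7.82 for Serpina3g, 7.37 for Tmem176b, 7.05 for Ctla2a, 6.09 for Ctla2b and 4.62 for Tmem176a. In Meis1 cells all 5 were also higher by at least 1 (10.3% of genes were higher and 25.4% lower), with differences of 6.99 for Serpina3g, 6.45 for Ctla2a, 5.64 for Tmem176b, 5.35 for Ctla2b and 3.45 for Tmem176a beside -0.327 for the median gene. In high against low Klf1 cells all 5 were lower by at least 1 (7.75% of genes were lower and 54.2% higher), with differences of -6.98 for Serpina3g, -6.14 for Tmem176b, -6.04 for Ctla2a, -5.53 for Ctla2b and -3.24 for Tmem176a beside 1.14 for the median gene. Tmem176a had the smallest difference of the 5 in each of the 3 comparisons.

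**Figure D2:**
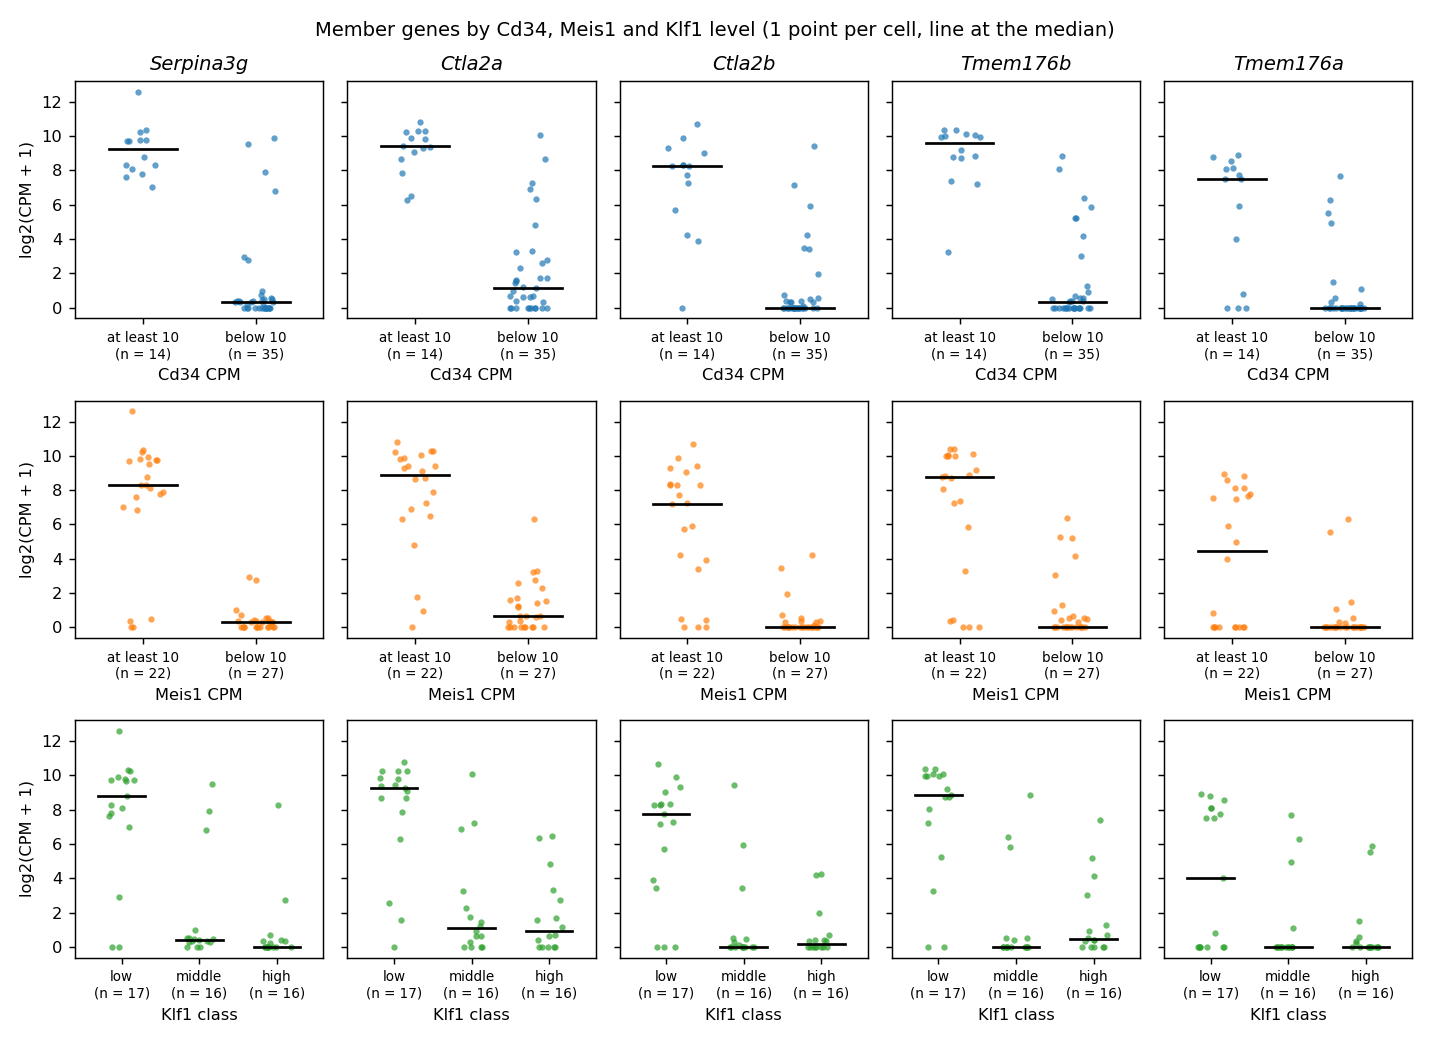
Levels of the 5 expressed genes (columns) as log2(CPM + 1), 1 point per cell, by Cd34 (top row), Meis1 (middle row) and Klf1 class (bottom row), with a line at the median. All 14 Cd34 cells are high for Serpina3g, and 3 cells without Cd34 lie within their range, while in the Meis1 row no cell below 10 CPM of Meis1 has Serpina3g above 6.63 CPM.

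Depth, other lineage markers and proliferation genes moved with the same classes. The median depth was 1083632 reads in Cd34 cells and 2556759 in the other cells, 1427941 in Meis1 cells and 2887968 in the others, and 835415, 2455329 and 3335574 from the low to the high Klf1 class. With every cell thinned to 85519 reads, the Cd34 differences were 7.66 for Serpina3g, 7.26 for Ctla2a, 6.14 for Ctla2b, 7.05 for Tmem176b and 3.88 for Tmem176a. The Cd34 class was drawn again from the thinned counts and need not hold the same 14 cells. At that depth a single read passes 10 CPM, so the class there takes any cell with a Cd34 read. Over all genes tested, 10.5% were higher and 40.9% lower by at least 1 in Cd34 cells, and the marker counts stand beside those shares. Of the 11 HSC markers tested 10 were higher, but Cd34 itself, which defines the cells, is among them and in the sum. Their summed level ranged from 1112 to 5531 CPM in Cd34 cells and from 16.6 to 3914 CPM in the others. Of 10 erythroid markers tested 8 were lower, and all 8 mitosis genes were lower (40.9% of all genes), with summed mitosis medians of 84.2 CPM in Cd34 cells and 2163 CPM in the others. Myeloid markers also moved: Lyz2, the lysozyme gene, had 111, 486 and 1408 CPM in Cd34 cells and 0, 0.584 and 39230 CPM in the others, while Elane, Ly6c2 and Cebpe had 0 reads in the kept cells and Csf1r was at 0 in every Cd34 cell. The summed level of the 10 myeloid genes was 190.5 to 2798 CPM in Cd34 cells and 0 to 40981 CPM in the others. Of the 7 megakaryocyte markers tested, 5 were higher, and the summed level was 66.4 to 4344 CPM in Cd34 cells and 0 to 2093 CPM in the others. Of the dendritic cell markers, 1 of 5 tested was higher and 1 lower, of the NK cell markers 1 of 2 was higher and 1 lower, and of the B cell markers 0 of 2 were higher or lower. The 1 T cell gene and the 1 stromal gene tested were higher. The part of these markers in the levels of the 5 genes was not tested. Without cells 9, 13, 23 and 34 the Cd34 differences were 7.98 for Serpina3g, 7.10 for Ctla2a, 6.25 for Ctla2b, 7.17 for Tmem176b and 4.52 for Tmem176a, and without cell 41 that of Serpina3g was 7.56.

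Within the 22 Meis1 cells, the 14 with Cd34 still stood above the 8 without it. Serpina3g had a median of 633 CPM in the 14 Cd34 cells and 55.7 CPM in the 8 others, Ctla2a 675 and 72.2 CPM, Ctla2b 309 and 5.003 CPM, Tmem176b 794 and 0.311 CPM, and Tmem176a 180 and 0 CPM. All ranges overlapped, since cell 15, without Cd34, had 731 CPM of Serpina3g and 1074 CPM of Ctla2a. The differences of means were 5.93 for Tmem176b, 4.77 for Serpina3g, 4.09 for Ctla2a, 3.86 for Ctla2b and 3.85 for Tmem176a, with 9.2% of genes higher and 46.8% lower by at least 1 and -0.887 for the median gene. The median depth was 1083632 reads in the 14 cells and 2266422 in the 8 others. With every cell thinned to 85519 reads the differences were 6.08 for Serpina3g, 5.67 for Tmem176b, 5.32 for Ctla2a, 5.19 for Ctla2b and 2.50 for Tmem176a. The Meis1 and Cd34 classes were drawn again from the thinned counts, so they need not hold the same 14 and 8 cells. A single read passes 10 CPM at that depth, so these classes rest on any read. The changes in size and order thus mix depth with the cut and with class membership. The 8 cells without Cd34 had 505 to 1598 CPM of Klf1, against a median of 7.18 CPM and a highest value of 1160 CPM in the 14 with it, so Cd34 and Klf1 cannot be told apart here. Meis1 itself was lower in the 8 cells, with a median of 83.9 CPM against 503 CPM in the Cd34 cells.

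Counted together, the 5 genes were all at 10 CPM or more in 10 cells and all below it in 23 cells. Of the 10 cells with all 5, 9 had Cd34 and all had Meis1, and the exception for Cd34 was cell 15. In 6 cells 4 genes were present, in 2 cells 3, in 1 cell 2 and in 7 cells only 1. All 18 cells with Serpina3g had Ctla2a, and 2 cells had Ctla2a without Serpina3g, cells 36 and 42. Serpina3g and Tmem176b were found together in 16 cells, Serpina3g alone of the pair in 2 and Tmem176b alone in 4. The 14 Cd34 cells, which all had Serpina3g, were 77.8% of the cells with Serpina3g, and the 18 Serpina3g cells were 81.8% of the Meis1 cells.

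Reads of the relatives cannot be parted with equal certainty. The software that made the counts shares a read that matches several transcripts among them by a model, and a count that is not whole marks such sharing. Of the cells above 0, the count of Ctla2a was not whole in 28 of 40 (70.0%) and that of Ctla2b in 14 of 29 (48.3%), but that of Serpina3g in 2 of 35, of Tmem176b in 1 of 32 and of Tmem176a in 0 of 21. The annotated transcripts share sequence as well. Of the 31-base words in GENCODE M21 transcripts of Ctla2b, 23.8% occurred in no other gene, and 58.8% were shared with Gm49391, which has no row in the deposited table. Of the Ctla2a words 22.7% were shared with it. If the unstated transcript set held Gm49391, part of the Ctla2 reads may be missing from the levels and the split given here, which was not tested. Among genes with a row, 72.6% of the Ctla2b words and 71.7% of the Ctla2a words were unique. For Serpina3g 71.6% of the words were unique, and 16.2% were shared with Serpina3f, 15.2% with Serpina3h and 12.4% with Serpina3i. The Tmem176 genes overlap by 578 bases on opposite strands, and 98.8% of the Tmem176b words and 99.1% of the Tmem176a words were unique. Whether the counting used the strand was not stated in the labels, so reads from the overlap cannot be told apart.

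The Serpina3 relatives did not go together: in the 18 cells with Serpina3g, Serpina3f took 0% of the reads of the pair. The kept cells summed to 26721 reads of Serpina3g and 0 of Serpina3f. Of the Serpina3f words 72.7% are its own.

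Ctla2a and Ctla2b went together in most cells. Both were at 10 CPM or more in 16 cells, Ctla2a alone in 4, Ctla2b alone in 1 (cell 44, with 2 reads) and neither in 28. The Spearman rho was 0.790 and the Pearson r on log2 values 0.905 over the 49 cells. Points share the total of their cell and, for this pair, reads that were divided by a model. Over the 22 cells where the pair summed to 10 CPM or more, Ctla2a took a median of 67.7% of it (33.3% to 100%) and more than 50% in 20 cells. The 33.3% came from cell 34, with 3 reads of Ctla2a and 6 of Ctla2b, and cell 44, with 1 and 2. Cell 33 had the next lowest share. The share was 52.04% in cell 33, 56.8% in cell 52, 89.1% in cell 31 and 94.8% in cell 32, all Cd34 cells, so the split was not fixed. In the 22 Meis1 cells rho was 0.862 and in the 14 Cd34 cells 0.705, while Serpina3g and Ctla2a, which had a rho of 0.745 over all cells, had one of 0.244 among the 14 Cd34 cells. The r of the Ctla2 pair was 0.747 in the 14 Cd34 cells. In the 35 cells below 10 CPM of Cd34 its rho was 0.545 and its r 0.831.

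Tmem176b and Tmem176a agreed less. Both were at 10 CPM or more in 12 cells, Tmem176b alone in 8, Tmem176a alone in 2 and neither in 27, with a rho of 0.621 and an r of 0.668. Tmem176b took a median of 79.8% of the pair over 22 cells (0% to 100%) and more than 50% in 19. Cells 33, 47, 32 and 3 had 1002, 585, 461 and 265 CPM of Tmem176b beside 0 CPM of Tmem176a. In cell 16 it was the other way, with 8.56 CPM of Tmem176b and 216 CPM of Tmem176a, and cell 8 had Tmem176a alone at 77.3 CPM. In the 22 Meis1 cells rho was 0.686 and r 0.570. In the 14 Cd34 cells rho was 0.598 but r 0.0954, so the 2 measures parted there. In the 35 cells below 10 CPM of Cd34 rho was 0.369 and r 0.498.

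**Figure D3:**
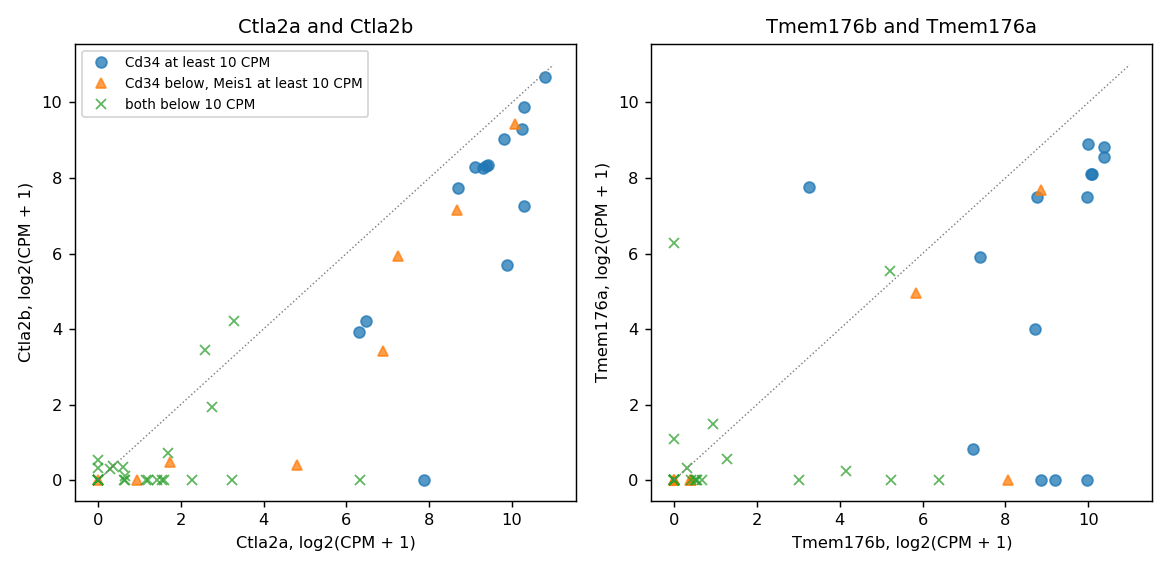
Levels as log2(CPM + 1) of Ctla2a against Ctla2b (left) and of Tmem176b against Tmem176a (right), 1 point per cell, marked by Cd34 and Meis1 level, with a dotted line of equal level. Most Ctla2 points lie just under the line in both classes with Meis1, while Tmem176 points lie along the horizontal axis in several cells and far above the line in cell 16.

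The genes whose levels ran most like each family over the 49 cells had Cd34 in common, the only gene among the 5 highest of all 3 families. Members of a family were left out of its own ranking. Ctla2a, among the 5 highest for Serpina3g and for Tmem176, thus could not be listed for Ctla2. The 5 highest also changed under several alternatives given at the end. For Serpina3g the 5 highest Spearman rho were those of Cd34 (0.807), Meis1 (0.769), Ctla2b (0.764), Runx2 (0.761), a Runt family factor known from bone, and Ctla2a (0.745). For the sum of the Ctla2 genes they were Cd34 (0.803), Fxyd5 (0.792), which encodes the sodium pump regulator dysadherin, Meis1 (0.788), Rgs1 (0.782), a brake on G protein signals, and Pkm (0.767), pyruvate kinase. For the sum of the Tmem176 genes they were Adgrg1 (0.758), the adhesion receptor GPR56, Ctla2a (0.755), Cd34 (0.747), Zyx (0.747), the focal adhesion protein zyxin, and Plcb2 (0.741), a phospholipase C. Of all genes tested, 1.44% had a rho of at least 0.5 with Serpina3g, 1.75% with the Ctla2 sum and 1.59% with the Tmem176 sum. For single members the share was 1.86% with Ctla2a, 1.39% with Ctla2b, 1.36% with Tmem176b and 0.836% with Tmem176a. The other members all passed that level with each family: for Serpina3g, Tmem176b ranked 23rd (0.660) and Tmem176a 85th (0.538) of 9086 genes, for Ctla2, Serpina3g ranked 7th (0.763) and Tmem176b 9th (0.755), and for Tmem176, Serpina3g ranked 14th (0.686) and Ctla2b 43rd (0.616). The members were chosen from values of these same cells, so nothing is read from their ranks with each other.

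The 3 lowest rho with Serpina3g were those of Tcp1 (-0.724), a subunit of the TRiC chaperonin, Tuba1b (-0.700), an alpha tubulin, and Slc25a5 (-0.692), a mitochondrial ADP and ATP carrier. With Ctla2 they were Ppm1g (-0.700), a phosphatase, Ran (-0.699), the GTPase of nuclear transport, and Prdx6 (-0.698), a peroxiredoxin. With Tmem176 they were Txnl1 (-0.742), a thioredoxin-like protein, Slc25a5 (-0.688) and Chaf1a (-0.679), a chromatin assembly factor subunit. Klf1 had a rho of -0.620 with Serpina3g, -0.609 with Ctla2 and -0.542 with Tmem176. Total reads had rho of -0.177 with Serpina3g, -0.351 with Ctla2a, -0.251 with Ctla2b, -0.173 with Tmem176b and -0.004 with Tmem176a.

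Single members differed in their nearest genes. Ctla2a had the same 5 as its family except that Ctla2b (0.790) stood in place of Pkm, and Ctla2b had Ctla2a (0.790), Serpina3g (0.764), Coro1a (0.763), an actin regulator of blood cells, Rgs1 (0.759) and Cd34 (0.756). Tmem176b was nearest to Cd34 (0.757), Ctla2a (0.755), Adgrg1 (0.745), Plcb2 (0.737) and Angpt1 (0.736), a ligand of the Tie2 receptor. The genes nearest to Tmem176a included Pim1 (0.686), a kinase induced by cytokines, Zyx (0.653), Marcksl1 (0.638) and Rab38 (0.635). In Cd34 cells the lowest, median and highest levels were 536, 1893 and 2980 CPM for Adgrg1, 88.8, 405 and 813 CPM for Fxyd5 and 240 to 1748 CPM (median 1007) for Pkm. In the other cells they were 0, 203 and 2422 CPM for Adgrg1, 0, 0.304 and 2382 CPM for Fxyd5 and 0, 0.456 and 574 CPM for Pkm.

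**Figure D4:**
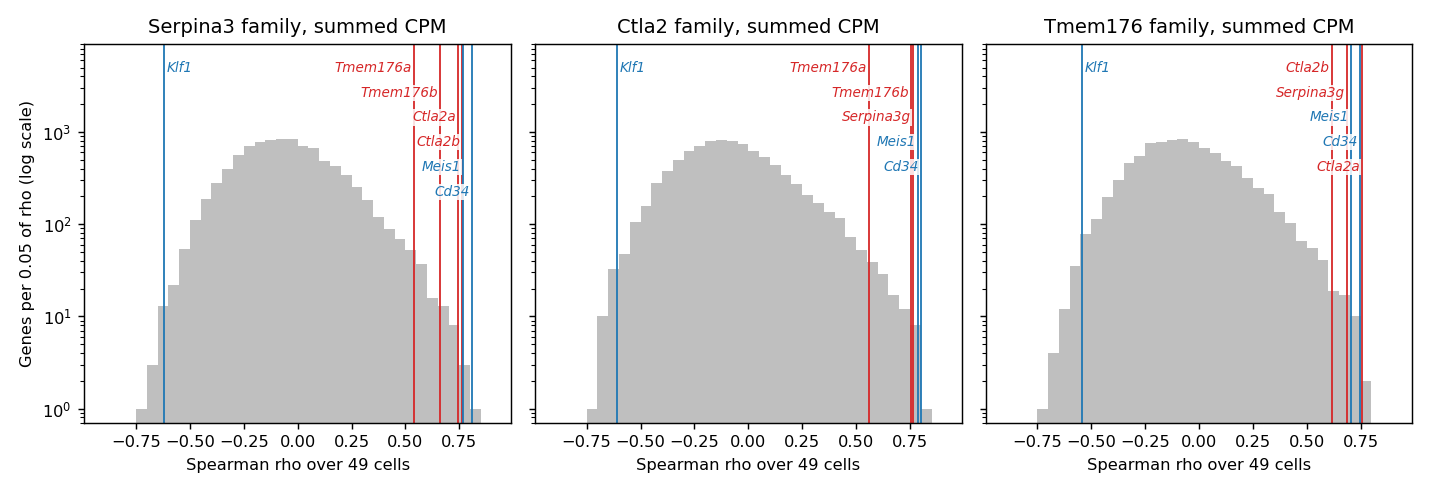
Distribution over genes of the Spearman rho with the summed CPM of each family over 49 cells (grey, log scale of genes per bin of 0.05), with lines at Cd34, Meis1 and Klf1 (blue) and at members of the other families (red). Most genes lie near 0, and the members lie in the upper tail between 0.538 and 0.764 while Klf1 lies in the lower tail. The members were chosen from values of these same cells, so nothing is read from their place.

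Other serpins of clade A were nearly all silent. Of the other 9 genes of the Serpina3 cluster, 7 had 0 reads in the kept cells, Serpina3h stayed below 10 CPM, and Serpina3c reached 11.9 CPM in cell 3 alone. Of 12 further clade A serpins, which include the plasma antitrypsin genes of the liver, 11 had 0 reads. The intracellular clade B serpins gave another picture: 5 of 10 had 0 reads, and 1 of the 4 tested was higher by at least 1 in Cd34 cells, as were 10.5% of all genes (median 0.28 for the list, -0.715 for all genes). That was Serpinb1a, an inhibitor of neutrophil proteases, with 0, 344 and 1335 CPM in Cd34 cells, against 0, 0 and 1777 CPM in the other cells (difference 6.31, rho 0.574 with Serpina3g). Its highest level was in cell 9. The others tested were Serpinb6a (0.61), Serpinb9 (-0.06) and Serpinb6b (-0.996).

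Cathepsins, which include the cysteine proteases on which Serpina3g and Ctla2a act, were also measured. The list was not limited to cysteine cathepsins, so not every gene in it is a target. Of 13 lysosomal cathepsins, 6 reached 10 CPM in at least 50% of the cells, which were Ctsa, Ctsb, Ctsd, Ctse, Ctsl and Ctsz, and the difference by Cd34 had a median of 0.18 over the 9 tested. By at least 1, 2 were higher (10.5% of all genes) and 2 lower (40.9% of all genes). Ctso (3.29) and Ctsc (1.63) were higher, and Ctse (-3.40) and Ctsz (-1.11) lower. Ctsl, the cathepsin that Ctla2a inhibits, had a median of 11.997 CPM in Cd34 cells and 32.2 CPM in the other cells, so its medians and its difference of log2 means (0.18) had opposite signs. Its rho with the Ctla2 genes was -0.001. Among cystatins, the other inhibitors of cysteine cathepsins, Cst3 was at 10 CPM or more in all 49 cells (difference 0.44) and Cstb in 37 (-1.43), and 4 of 8 had 0 reads. Of 9 granule serine proteases 5 had 0 reads, and Prtn3, proteinase 3, was the 1 tested, with 0, 149 and 713 CPM in Cd34 cells, against 0, 0 and 86.8 CPM in the other cells (difference 4.85, rho 0.656 with Tmem176). Of 10 MS4A genes 3 had 0 reads and the 1 tested, Ms4a6c, had 0 to 212 CPM in Cd34 cells and 0 to 1.99 CPM in the others.

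The genes around each pair were mostly silent too. Between the Ctla2 genes lies Tpbpb and just beyond them Tpbpa, both with 0 reads, as had 7 of the 8 placental cathepsin genes beside them. On the far side of Ctla2b, Dapk1, a death-associated kinase 132159 bases away, reached 10 CPM in 16 cells with a rho of 0.192. The neighbours taken up for the Serpina3 pair were Serpina5, Serpina3a, Serpina3b, Serpina3c, Serpina3i, Serpina3j, Serpina3k and Serpina3m. All but Serpina3c had 0 reads in the kept cells, and Serpina3h was not among them. On chromosome 6, Gimap1, a lymphocyte GTPase gene 90023 bases from the Tmem176 pair, reached 10 CPM in 17 cells, with a highest level of 1158 CPM, a Cd34 difference of 5.54 and a rho of 0.591 with Tmem176. Gimap5, 79608 bases away, did so in 8 cells (rho 0.483), while Gimap3, which is closer, and Aoc1 on the other side had 0 reads.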

How the data were processed

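The 52 Smart-seq2 libraries, 1 mouse bone marrow cell each, share 1 label. The authors deposited estimated counts (expected counts) per Ensembl gene, made with Trim Galore 0.5.0 and Salmon 0.03.1 on GRCm38 per the submitters' processing notes, and 4.23% of the values were not whole. The labels state neither the transcript set, nor the strand setting, nor how transcripts were summed to genes. An estimated count divides reads of similar transcripts by a model, which bears on Ctla2a and Ctla2b most.

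These values were rounded to whole reads and divided by the total of the cell to give CPM. A cell was kept if its depth was 50000 reads or more, its detected genes numbered 1000 or more and its mitochondrial share did not exceed 20%. No doublet caller was run. Symbols came from GENCODE M21 (27728 of 28786 identifiers, 96.3%). Promoter windows came from RefSeq, where all 6 genes were found. Differences are between means of log2(CPM + 1), with 1 as the pseudocount. A gene was called higher or lower at a log2 difference of at least 1 and at most -1. Spearman rho was computed over kept cells for genes with a read in at least 10 cells and a mean of at least 5 CPM. With 1 sample no test was run and no p-value computed. Shares carry exact Clopper-Pearson 95% intervals, except that a count of 0 is given the limit of 3 counts. Python 3.11.15, numpy 2.4.6, pandas 2.3.3 and scipy 1.17.1 were used, and the steps were tested on simulated data.

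The genes, the gene lists and the tests were chosen with earlier results of these data known. Named were the 6 genes, Cd34, Meis1 and Klf1, the 5 highest and 3 lowest rho for each family, the 5 highest for each gene, list genes at 10 CPM or more in at least 50% of cells or with the 3 largest differences by Cd34 in each direction, and neighbours in the annotation. A few genes that this rule names are not reported here. Where a list is given by counts, only those of its genes that bear on the members are named. Alternatives covered the filter, the threshold, the pseudocount, the scaling, the depth, the cells and the correlation measure.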

Additional observations from a re-analysis of the deposited data

How the results depend on the processing

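Of 330 alternative values, 311 moved by less than the spread or tolerance and 19 moved by more. For a log2 difference the spread was the pooled SD over cells, which is wide. The move of Serpina3g from 4.77 to 6.08 by Cd34 within Meis1 cells thus did not count as moved. Only log2 differences were checked for a change of sign, and 0 showed one. The tally therefore says little about stability. No paired analysis was possible because the labels give only 1 group. With 1 read in place of 10 CPM as the mark of presence, the share of cells was 71.4% for Serpina3g, 79.6% for Ctla2a, 59.2% for Ctla2b and 65.3% for Tmem176b, and 27 cells had both Ctla2 genes, since this mark also takes cells with a single read. With a pseudocount of 10 the Cd34 difference of Serpina3g was 5.19. The correlation of Ctla2a and Ctla2b was 0.905 in cells thinned to 85519 reads and 0.905 as Pearson r. Most of the moved values, 11 of 19, concerned the ranking of genes. Of the 5 genes named for each family, the number still in the top 5 without cells 9, 13, 23 and 34 was 3 for Serpina3g, 2 for Ctla2 and 3 for Tmem176. Among cells with Y codes it was 3 for Ctla2 and 3 for Tmem176, in thinned cells 2 for Serpina3g, 3 for Ctla2 and 3 for Tmem176, and by Pearson r 3 for Serpina3g, 3 for Ctla2 and 2 for Tmem176; the cause was not tested. Leaving out cell 41, and the correlation within Meis1 cells, were chosen after seeing the data. The difference of the median gene by Cd34 was -0.659 with size factors and -0.616 in thinned cells, beside -0.715 as reported. The class was drawn again each time, in thinned cells from any read of Cd34. Over all alternatives the Cd34 difference was 5.19 to 8.01 for Serpina3g, 4.97 to 7.26 for Ctla2a, 3.77 to 6.25 for Ctla2b, 4.97 to 7.49 for Tmem176b and 2.73 to 4.66 for Tmem176a, and the Klf1 difference of Serpina3g was -7.80 to -4.59. Without replicate animals, spread over cells is the only error these data give, and 1 read is worth more CPM in shallow cells, while the median depth was lower in Cd34 cells.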

Other observations

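Of 24 interferon-inducible genes, 9 reached 10 CPM in at least 50% of the cells. Of the 19 tested, 8 were higher and 2 lower by at least 1 on the log2 scale in Cd34 cells, where 10.5% of all genes were higher and 40.9% lower. The median difference was 0.87 for the list and -0.715 for all genes. Ifitm1, an interferon-induced membrane protein that stem cells also make, had 0, 524.99 and 1185 CPM (lowest, median, highest) in Cd34 cells and 0, 0 and 671 CPM in the other cells. Its rho was 0.711 with the Ctla2 genes, 0.611 with Tmem176 and 0.548 with Serpina3g. Ifitm3 followed with 226, 531 and 1452 CPM in Cd34 cells and 0, 101 and 5436 CPM in the others, and the highest level was in cell 34. Irf9, an interferon regulatory factor, had a median of 7.77 CPM in Cd34 cells and 86.03 CPM in the others, with a log2 difference of -1.92.

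Of the T and NK cell lists, 5 of 10 T cell genes and 3 of 7 NK cell genes had 0 reads. Lat, a signalling adaptor of T cells and platelets, had a median of 70.9 CPM in Cd34 cells and 0 CPM in the others, with a rho of 0.547 with Tmem176. Nkg7, a gene of cytotoxic lymphocytes, had medians of 114 CPM in Cd34 cells and 0 CPM in the others and was highest in cell 16, the cell with Tmem176a but little Tmem176b. The other NK cell gene tested, Il1rl1, reached 10 CPM in 20 cells and was lower in Cd34 cells, with a difference of -2.62.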
